A study of Arabidopsis thaliana with 36 samples.

Results

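The transcriptome of whole Arabidopsis thaliana rosettes 24 h after 100 cGy of gamma rays was compared with that of mock-treated rosettes collected at the same time. Each group held 3 libraries, 6 of the 36 in the series. All genes that reached 1 CPM (counts scaled to 1e6 per library) in at least 3 of the 36 libraries are described, which were 18875 of the 33977 genes in the deposited table. The plants of both groups were wild type, accession Col-0, about 4 weeks old, and raised in short days of 8 h light at 22 °C. The exposed plants received 100 cGy, which is 1 Gy, from a sealed caesium source, and the mock plants received none. The series also holds plants given 10 cGy and plants collected 1, 3 and 72 h after exposure, each again with 3 libraries. No label gives the origin of the libraries of a group, such as independent plants or irradiations. The p-values therefore reflect library-to-library spread, which may be technical.

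Gamma rays break DNA strands directly and through oxygen radicals. In plants the kinases ATM and ATR pass the signal to SOG1, a transcription factor with the role that p53 has in animals, which switches on DNA repair genes and inhibitors of cyclin-dependent kinases. A rosette contains mostly cells that have stopped dividing. Mitosis goes on in the shoot apex, at the base of young leaves and in the stomatal lineage of the leaf epidermis, and genes of mitosis are controlled by MYB3R factors that bind a short promoter element, the mitosis-specific activator (MSA).

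Library depth, read from the smallest step of each CPM column, was 28.2 to 32.8 in units of 1e6 counts for mock and 28.6 to 36.3 for 100 cGy, so 3 counts correspond to 0.0827 to 0.107 CPM. Between 17567 and 17908 genes reached 1 CPM in each of the 6 libraries. The summed level of 4 leaf mesophyll markers was 33590 to 36640 CPM in mock and 34700 to 34900 CPM in 100 cGy libraries, and 6 flower markers together stayed below 1 CPM, with AP1 at 0. Root markers summed to 85.8 to 127 CPM in mock and 86.3 to 137 CPM after 100 cGy. In bulk samples such as these, fewer cells of a type and less RNA per cell cannot be told apart.

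A day after 100 cGy few genes differed from mock, and nearly all by less than 2-fold. With a linear model on log2(CPM + 0.5) over all 36 libraries (limma, Benjamini-Hochberg adjusted p below 0.05, here "called"), 113 genes were called, 0.599% of those tested. Of these, 38 rose (0.201%) and 75 fell (0.397%). The median change was 0.42 on the log2 scale among the risen genes and -0.36 among the fallen ones. RALFL32 and ELIP1 were the 2 called genes that moved by 1 or more on the log2 scale. The same dose gave 1937 higher (10.3%) and 1391 lower genes (7.37%) at 1 h, 2346 called genes (12.4%) at 3 h and 299 (1.58%) at 72 h.

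The count at 24 h rests on the spread pooled over all 12 groups and on single libraries. With a term for the replicate number within each time 51 genes were called, 49 of them among the 113. Leaving out 1 library gave 6, 17 and 34 calls without mock replicates 1, 2 and 3, and 38, 80 and 1 without 100 cGy replicates 1, 2 and 3. Of the 113 calls, PLC1 alone was kept whichever of the 6 libraries was left out. When the libraries were rescaled by median ratios, 95 genes were called, 49 higher and 46 lower. At an unadjusted p below 0.05 there were 2663 genes (14.1%).

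**Figure D1:**
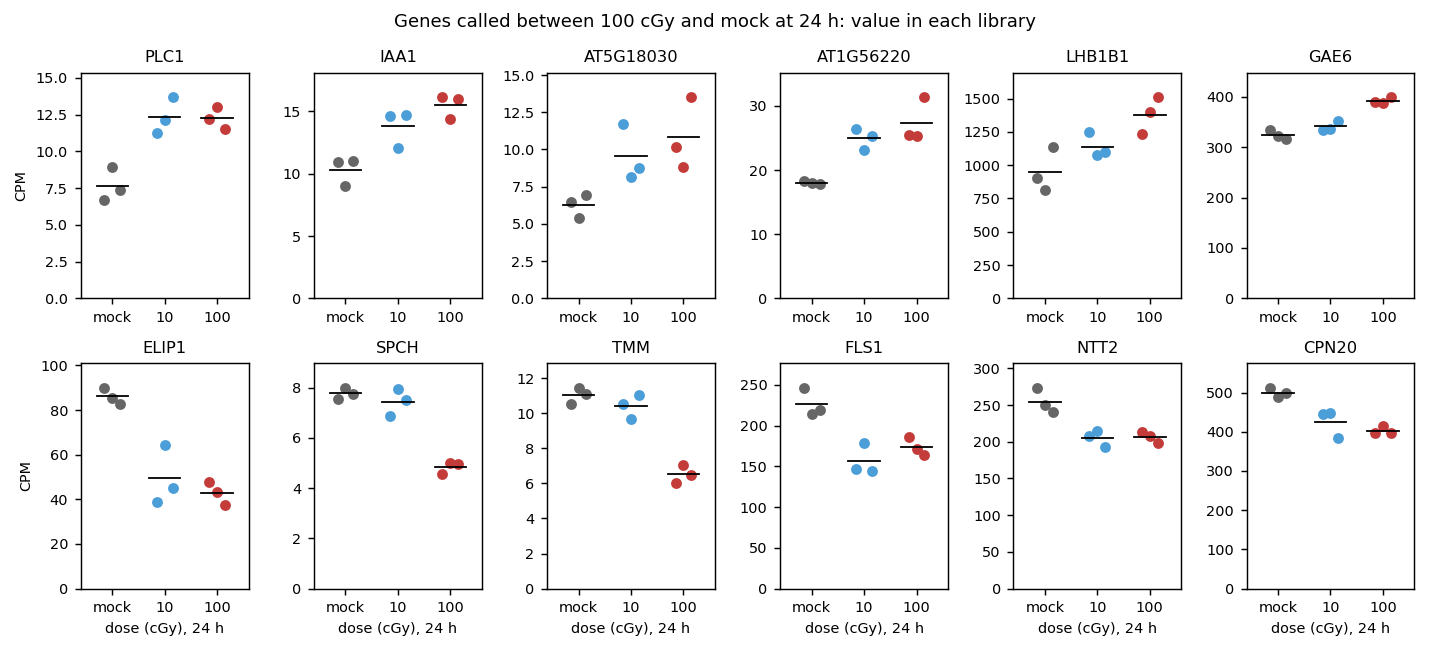
CPM (vertical axis, linear, starting at 0) of 12 called genes in each library of mock, 10 cGy and 100 cGy at 24 h; the bars are group means. The 6 genes of the upper row had all 3 libraries of 100 cGy above all 3 of mock, the 6 of the lower row had them below, and the 10 cGy libraries were near either group depending on the gene.

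Genes that rose included members of auxin-responsive families and genes of the cell wall and cuticle. PLC1, a phospholipase C of inositol lipid signalling, measured 6.67, 8.95 and 7.39 CPM in mock and 12.2, 13.0 and 11.5 CPM after 100 cGy. Its groups were apart by more than either group's range, and its log2 fold change was 0.65 ± 0.10 (SE, n = 3 against 3; limma adjusted p = 0.00419). IAA1, an Aux/IAA repressor that auxin induces quickly, measured 10.97, 8.98 and 11.0 CPM in mock and 16.1, 14.4 and 16.0 CPM after 100 cGy (log2 fold change 0.57 ± 0.11, limma adjusted p = 0.0197). All irradiated libraries again lay above all mock ones.

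AT5G18030, a SAUR gene (the family of small auxin up-regulated RNAs, many of which promote cell expansion), had 6.49, 5.41 and 6.93 CPM in mock and 10.14, 8.82 and 13.5 CPM after 100 cGy (0.73 ± 0.14, limma adjusted p = 0.0186). A further SAUR gene, AT1G29460, had 4.51, 4.39 and 4.01 CPM in mock against 7.28, 6.52 and 7.83 CPM (0.68 ± 0.16, limma adjusted p = 0.0482, and 0.0947 with the replicate number in the model). Neither gene's groups overlapped. The list of 78 SAUR genes and that of the Aux/IAA genes were made after the calls were known. Of the SAUR genes 45 were tested. Of these, 2 rose and none fell, where 0.201% and 0.397% of all tested genes did so. Their median log2 fold change was 0.25, where the median of all tested genes was -0.01. It was 0.12 without mock replicate 1 and 0.16 without 100 cGy replicate 3, and the list medians of the 100 cGy libraries against the mock mean were 0.30, 0.05 and 0.33. In 10 of the 45 the irradiated libraries lay above all mock libraries, and in none below, where 6.72% and 10.2% of all tested genes did so. SAUR genes are close copies of each other, so the assignment of reads among them is uncertain. Of 19 tested Aux/IAA genes, IAA1 rose and none fell, with a median of 0.09 (0.03 and 0.18 without 100 cGy replicates 1 and 2). AT1G56220, of a family named for dormancy and auxin, stood at 18.3, 18.0 and 17.8 CPM in mock and at 25.5, 25.4 and 31.3 CPM after 100 cGy (0.58 ± 0.10, limma adjusted p = 0.00744).

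Among the called genes were 4 for cell wall and surface material, named after their values were seen. GAE6, an epimerase that makes the galacturonic acid of pectin, had 334, 323 and 317 CPM in mock and 389, 387 and 399 CPM after 100 cGy (0.27 ± 0.06, limma adjusted p = 0.0242). CSLC04, which makes the xyloglucan backbone, rose by 0.36 on the log2 scale (limma adjusted p = 0.032, and 0.0639 with the replicate number). LTPG1 and LTPG2, lipid transfer proteins anchored at the cell surface that take part in cuticular wax export, each rose by 0.30 (limma adjusted p = 0.0243 and 0.0204, the former 0.0571 with the replicate number). For all 4 genes the groups were apart. A list of 24 expansins, xyloglucan hydrolases and PIF factors had no called member, but 8 had irradiated libraries above all mock libraries and 1 (XTH16) below, where 6.72% and 10.2% of all tested genes did so, and its median was 0.21. At an unadjusted p below 0.05, a level that 14.1% of all tested genes reached in either direction, 10 of the 24 were higher and 1 lower. PIF4, a light-regulated factor that promotes elongation, had 48.5, 45.3 and 51.2 CPM in mock and 60.7, 57.0 and 79.7 CPM after 100 cGy (0.43, limma adjusted p = 0.0532).

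The largest rise among called genes was that of AT1G10150, annotated as a carbohydrate-binding protein, from 3.67, 3.70 and 6.23 CPM to 6.61, 7.53 and 12.9 CPM (0.90 ± 0.19, limma adjusted p = 0.0242). AT5G11610, an exostosin-like protein, followed with 0.74 (limma adjusted p = 0.0402, and 0.0571 with the replicate number). Other large rises, beside those described above and below, were those of AT3G18773, a RING/U-box protein (0.61), AT1G71970 (0.60), AT4G13577 (0.57), SIB2 (0.56), a VQ protein that binds chloroplast sigma factor and WRKY proteins, UGT72E1 (0.55), which adds glucose to lignin precursors, AT1G01180 (0.52) and RTL1 (AT1G80650, 0.50). Their adjusted p-values were between 0.0129 and 0.0482. With the replicate number in the model UGT72E1 and RTL1 kept their calls and the other 5 had adjusted p-values from 0.0571 to 0.0765.

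The called genes LHB1B1 and ELIP1 went in different directions. LHB1B1, a chlorophyll a/b protein of photosystem II, rose from 902, 810 and 1137 CPM to 1231, 1397 and 1509 CPM (0.55 ± 0.10, limma adjusted p = 0.0129). ELIP1, an early light-induced protein that accumulates under excess light, fell from 90.08, 85.4 and 82.9 CPM to 47.6, 43.3 and 37.6 CPM. Its log2 fold change was -1.005 ± 0.15 (limma adjusted p = 0.00419), and no irradiated library came near the mock range. Its close relative ELIP2 stood at 30.2, 22.2 and 26.5 CPM in mock and 13.1, 12.2 and 12.5 CPM after 100 cGy (-1.02, limma adjusted p = 0.0545). Of 28 nuclear photosynthesis genes listed, in which LHB1B1 is not included, ELIP1 alone was called. The median of that list was 0.07 (0.03 and 0.11 without mock replicates 2 and 3), with 6 members above and 2, the ELIP genes, below all mock libraries. Of all tested genes 6.72% lay above and 10.2% below. After rescaling by median ratios 3 members lay above and 2 below, where 8.52% of all tested genes lay on each side. The 10 cGy libraries of the same time, set against the same mock libraries, gave ELIP1 a change of -0.83.

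Of 22 genes for flavonoids and phenylpropanoids 1 was called. This was FLS1, flavonol synthase. It had 247, 214 and 219 CPM in mock and 186, 172 and 164 CPM after 100 cGy (-0.38, limma adjusted p = 0.0482, 0.0784 with the replicate number and 0.0605 after rescaling). Its groups did not overlap. In the list 9 genes had irradiated libraries below all mock ones and none above, where 10.2% and 6.72% of all tested genes did so. The median was -0.21, with 14 values below 0 and 8 above. The 10 cGy libraries of the same time, set against the same mock libraries, gave the list a median of -0.215 and FLS1 a change of -0.54. For 100 cGy against 10 cGy the list median was -0.02. MYB111, an activator of flavonol synthesis, had 13.7, 9.48 and 11.1 CPM in mock and 9.04, 5.87 and 6.23 CPM after 100 cGy (-0.67, limma adjusted p = 0.105). MYB13, another MYB transcription factor, fell by 0.69 (limma adjusted p = 0.0482, and 0.0895 with the replicate number).

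RALFL32 encodes a peptide of the RALF family, whose members signal through cell wall receptors and raise the pH outside the cell. It had 2.64, 1.83 and 1.09 CPM in mock and 0.521, 0 and 0.0556 CPM after 100 cGy, the latter 2 below the limit of 3 counts. Its fitted change of -1.79 ± 0.37 (limma adjusted p = 0.0242) depends on the pseudocount. In every library of 3 h and 72 h it was listed at 0, and the 10 cGy libraries of 24 h had 1.68, 1.87 and 0.18 CPM. At a level near the detection limit it was the call with the largest fold.

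The other large falls were in genes of varied kinds. AT5G04840, a bZIP protein, had 6.67, 6.36 and 6.22 CPM in mock and 3.47, 3.86 and 4.16 CPM after 100 cGy (-0.68 ± 0.12, limma adjusted p = 0.0105), with groups well apart. AT5G13880 (-0.70), AT2G17140 (-0.70), a pentatricopeptide repeat protein, AT5G62210 (-0.69) and AT1G71110 (-0.52) fell with adjusted p-values from 0.0118 to 0.0274 and kept their calls with the replicate number in the model. AT3G17680 (-0.65), AT4G15830 (-0.59), AT1G16630 (-0.57) and HB31 (-0.53), a homeobox protein, had adjusted p-values from 0.0274 to 0.0482, and from 0.0604 to 0.0642 with the replicate number; AT4G15830 was at 0.0531 after rescaling.

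SPCH and TMM, of the stomatal lineage, fell. SPCH is the transcription factor that starts the lineage, and TMM the receptor-like protein that spaces its divisions. SPCH had 7.56, 8.00 and 7.74 CPM in mock and 4.55, 5.00 and 4.97 CPM after 100 cGy. It fell by 0.63 ± 0.15 on the log2 scale (limma adjusted p = 0.0482, 0.0883 with the replicate number and 0.0521 after rescaling). TMM had 10.54, 11.5 and 11.1 CPM in mock and 6.03, 7.07 and 6.47 CPM after 100 cGy (-0.72 ± 0.15, limma adjusted p = 0.0305). In both genes each group was tight and the groups were far apart.

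A list of 17 stomatal lineage genes was made after SPCH and TMM were seen among the called genes. These were its only 2 called members, where 0.397% of all tested genes were called lower. The median log2 fold change was -0.34; 16 of 17 were below 0, and 10 had irradiated libraries below all mock ones, where 10.2% of all tested genes did. POLAR, a polarity protein of the asymmetric division, had 4.79, 5.25 and 5.39 CPM in mock and 2.53, 2.87 and 3.28 CPM after 100 cGy (-0.74, limma adjusted p = 0.0532). BASL, its partner at the cell cortex, had 2.99, 2.98 and 3.80 CPM against 1.49, 1.82 and 1.96 CPM (-0.74, limma adjusted p = 0.093). MUTE, which ends the stem-cell phase, was at -0.52 (limma adjusted p = 0.148). FAMA, which acts at the last division, was at -0.18 (limma adjusted p = 0.403). The change was numerically larger for SPCH, TMM, POLAR and BASL than for FAMA, and that difference was not tested. SPCH and TMM were taken for their calls in these data. The values of the whole list ran from -0.81 to 0.003, and its members were not ordered by stage. Whether early genes fell more than late ones therefore cannot be read from these values.

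Mature guard cells were also followed by markers. The summed level of MYB60, FAMA, KAT1 and HT1, of which FAMA is in both lists, was 72.6, 70.2 and 71.8 CPM in mock and 61.6, 67.3 and 58.4 CPM after 100 cGy. All 4 were below 0, with a median of -0.19 and no call. Of the 4, 3 lay below all mock libraries, where 10.2% of all tested genes did. After rescaling by median ratios 1 of the 4 did, where 8.52% of all tested genes did. No guard cell marker was at 0, and the part of these markers in the stomatal result was not tested.

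Set directly against 10 cGy at the same time, 100 cGy gave 213 called genes (1.13%), 27 higher (0.143%) and 186 lower (0.985%). Rescaling by median ratios moved the median of all genes from -0.08 to 0.01 and turned the split into 123 higher and 30 lower. Without 10 cGy replicate 3 there were 6 calls, and without 100 cGy replicates 1, 2 and 3 there were 31, 54 and 138. With the replicate number in the model there were 128. POLAR (-0.82, limma adjusted p = 0.0291), TMM (-0.64, 0.0391) and SCRM2 (-0.36, 0.0427), a partner of SPCH, were lower after 100 cGy than after 10 cGy. For 11 of the 17 stomatal genes the 100 cGy libraries lay below all of the 10 cGy ones, where 16.7% of all tested genes did. The median of the list was -0.35 for 100 cGy against 10 cGy, and 0.02 for 10 cGy against mock. These comparisons share libraries and are given side by side only.

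No gene of G2 and mitosis was called, while every value of the list lay below 0. The list of 21 cyclins, cyclin-dependent kinases, Aurora kinases and cytokinesis proteins had a median log2 fold change of -0.40, where the median of all tested genes was -0.01. All 21 were below 0, between -0.56 and -0.21, and 16 had their irradiated libraries below all mock libraries, where 10.2% of all tested genes did. None passed the adjusted threshold in limma, and 15 had an unadjusted p below 0.05, where 14.1% of all tested genes did. Leaving out any 1 library kept the median between -0.46 and -0.35, and the rescaling put it at -0.39.

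HIK, the HINKEL kinesin that builds the new cell plate, measured 11.5, 12.2 and 12.4 CPM in mock and 9.09, 8.69 and 8.29 CPM after 100 cGy (-0.45 ± 0.12, limma adjusted p = 0.0905). KN, the KNOLLE syntaxin of the same structure, measured 16.7, 17.5 and 16.1 CPM in mock and 14.0, 12.4 and 11.4 CPM after 100 cGy (-0.40, limma adjusted p = 0.0946). Both had groups that did not overlap. CYCB1;1, a B-type cyclin that is also a target of SOG1, measured 2.99, 3.67 and 2.95 CPM in mock and 1.90, 1.75 and 2.38 CPM after 100 cGy (-0.56 ± 0.16, limma adjusted p = 0.0952). CYCB1;2 had 8.53, 9.84 and 9.66 CPM in mock and 8.13, 6.33 and 7.13 CPM after 100 cGy (-0.36, limma adjusted p = 0.171). CYCA1;1, an A-type cyclin, was at -0.40 (limma adjusted p = 0.105). MAP65-4, a microtubule bundling protein of dividing cells, is not in the list and was called: it fell by 0.54 (limma adjusted p = 0.0402, and 0.0606 with the replicate number). Of 8 tested MAP65 genes, a list made after the calls were known, it alone was called, and their median was -0.05.

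The 3 libraries of 100 cGy were low together. Their list medians against the mock mean were -0.24, -0.50 and -0.40, those of the mock libraries -0.09, 0.07 and 0.01, and those of the 10 cGy libraries 0.00, 0.02 and 0.04. Against 10 cGy the 21 genes had a median of -0.38, and HIK (-0.58, limma adjusted p = 0.0254) and CDKB1;1 (-0.55, 0.0453) were called lower. In 15 of the 21 the 100 cGy libraries lay below all 10 cGy ones, where 16.7% of all tested genes did. Against mock at the other times the median of the list was -0.10 at 1 h, 0.04 at 3 h and -0.21 at 72 h, when 20 of 21 were below 0. Markers of the shoot meristem did not move with the list: they summed to 20.8, 34.4 and 23.6 CPM in mock and 30.01, 18.1 and 29.03 CPM after 100 cGy.

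**Figure D2:**
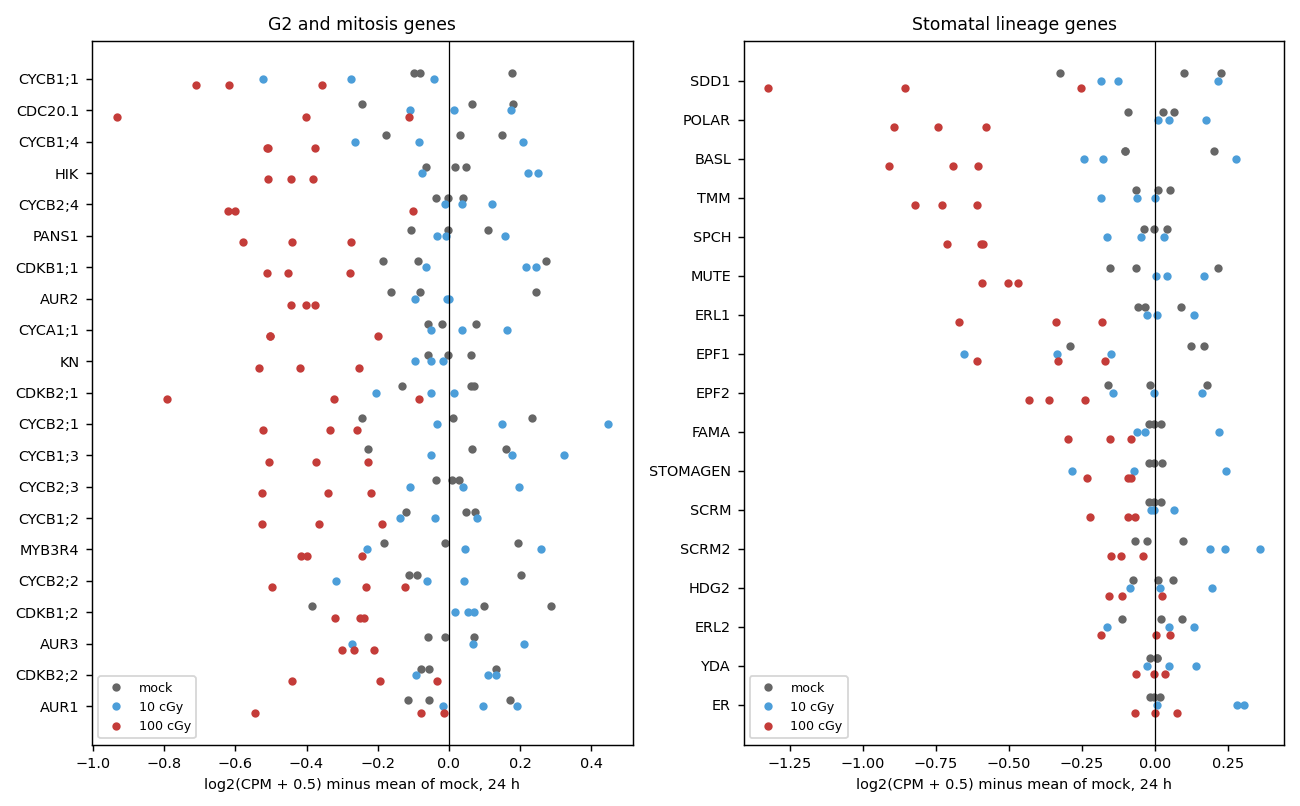
Level of each of 21 G2 and mitosis genes (left) and 17 stomatal lineage genes (right) in every library of 24 h, as log2(CPM + 0.5) minus the mean of the 3 mock libraries (horizontal axis). Points are libraries; the 100 cGy libraries lie to the left of 0 for every gene on the left panel, while the 10 cGy libraries scatter around 0.

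Promoters of 2 mitotic cyclins and of PARP2 are printed because the first 2 carry the element shared by genes of mitosis and the last that of SOG1 targets. The 250 bases before the annotated start were searched on both strands for the MSA core, AACGG, and the SOG1 motif, CTT and AAG with 7 bases between them, without regard to overlap between matches of the 2 motifs. The sequences run 5′ to 3′ on the gene's strand in TAIR10.1 from RefSeq, and capitals mark the matches, with CCGTT for an MSA core on the other strand. The cyclin CYCB1;2 lies before its start at chr5:1861704-1861953 (minus strand), CYCB1;1 at chr4:17624309-17624558 (minus strand) and PARP2 at chr4:1049516-1049765 (plus strand).
CYCB1;2: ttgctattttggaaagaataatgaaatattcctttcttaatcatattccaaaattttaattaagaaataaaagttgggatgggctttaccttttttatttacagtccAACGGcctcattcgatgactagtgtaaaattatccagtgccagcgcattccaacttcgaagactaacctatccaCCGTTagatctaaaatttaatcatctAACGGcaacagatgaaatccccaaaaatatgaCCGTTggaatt
CYCB1;1: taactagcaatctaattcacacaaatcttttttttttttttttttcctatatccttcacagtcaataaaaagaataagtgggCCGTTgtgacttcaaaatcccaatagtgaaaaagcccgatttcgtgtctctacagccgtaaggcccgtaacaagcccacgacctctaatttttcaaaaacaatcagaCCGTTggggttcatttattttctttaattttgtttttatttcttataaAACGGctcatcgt
PARP2: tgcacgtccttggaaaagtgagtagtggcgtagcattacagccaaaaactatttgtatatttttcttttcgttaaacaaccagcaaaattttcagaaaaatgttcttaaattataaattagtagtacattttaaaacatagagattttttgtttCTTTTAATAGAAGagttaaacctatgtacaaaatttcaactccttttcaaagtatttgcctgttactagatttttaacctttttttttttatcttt

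The MSA core was found in 14 of the 21 G2 and mitosis promoters (66.7%), where 4130 of 18801 promoters of tested genes (22%) held it. CYCB1;2 carried 4 matches and CYCB1;1 carried 3. Among the called genes the core was present in 29.3% of promoters of fallen genes and in 19.4% of those of risen genes. The SOG1 motif was present in 4 of 19 promoters of DNA damage response genes (21.1%) against 8.68% of all. The auxin response element TGTCTC was present in 7 of 45 SAUR promoters (15.6%) and in 10.6% of all. A match of letters is a description and not a binding site.

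Replication genes gave no call either. Of 20 genes of S phase none was called by limma. At an unadjusted p below 0.05, a level that 14.1% of all tested genes reached, were 8 of the 20, and all 8 were lower. The median was -0.18, 18 of 20 were below 0, and 6 had irradiated libraries below all mock ones, where 10.2% of all tested genes did. The median was -0.11 without mock replicate 2 and -0.10 without 100 cGy replicate 2. MCM4, a subunit of the replicative helicase, had 20.3, 25.3 and 21.7 CPM in mock and 18.0, 15.9 and 20.5 CPM after 100 cGy, with groups that overlapped (-0.30, limma adjusted p = 0.122). Among 14 inhibitors of cyclin-dependent kinases the median was 0.00 and none was called. SIM, an inhibitor that turns cells to endoreduplication, had 5.09, 4.72 and 5.15 CPM in mock and 6.64, 5.97 and 6.37 CPM after 100 cGy (0.31, limma adjusted p = 0.127).

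Growth regulators of young leaves were called in a list made after the calls were known. GRF1, a growth-regulating factor that keeps leaf cells dividing, fell from 5.64, 6.85 and 6.61 CPM to 4.52, 4.87 and 4.86 CPM (-0.38, limma adjusted p = 0.0482, and 0.0639 with the replicate number). TCP5, a TCP factor of leaf growth, fell from 7.41, 8.85 and 7.78 CPM to 5.81, 6.42 and 6.47 CPM (-0.34, limma adjusted p = 0.0472, and 0.0816 with the replicate number). The groups of both genes were apart. These were 2 of the 18 genes of the list, where 0.397% of all tested genes were called lower, and none of the 18 rose. The median of the list was -0.13. The median was -0.07 without mock replicate 2, and -0.03 and -0.21 without 100 cGy replicates 2 and 3. The list medians of the 100 cGy libraries against the mock mean were -0.15, -0.31 and 0.01. Against 10 cGy the 2 genes were also called lower (-0.59 for GRF1 and -0.52 for TCP5).

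The DNA damage response itself was not called at 24 h. Of 24 listed genes 19 were tested, and limma called none of them. At an unadjusted p below 0.05, a level that 14.1% of all tested genes reached, 1 was higher and 4 lower. At 1 h 13 of the 19 rose, where 10.3% of all genes did, with a median of 0.60. At 3 h 7 rose, where 10.6% of all genes did, with a median of 0.33. At 24 h the median was -0.09 (-0.04 and -0.14 without 100 cGy replicates 2 and 3). The effect of the dose was lower at 24 h than at 1 h in 11 of the 19 by the test of the difference, where 879 of all tested genes (4.66%) were.

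PARP2, a poly(ADP-ribose) polymerase that binds DNA breaks, still had all its irradiated libraries above mock: 4.72, 5.05 and 4.55 CPM against 5.81, 6.13 and 6.26 CPM. Its log2 fold change was 0.32 ± 0.12 (limma adjusted p = 0.202), after 1.75 at 1 h and 1.32 at 3 h. XRI1, a gene of recombination that responds strongly to X-rays, measured 6.61, 7.74 and 7.74 CPM in mock and 7.44, 6.59 and 6.82 CPM after 100 cGy. Its groups overlapped (-0.08, limma adjusted p = 0.792) where the change at 1 h had been 1.76. SMR7, a kinase inhibitor under SOG1, measured 0.244, 0.164 and 0.178 CPM in mock and 0.358, 0.195 and 0.490 CPM after 100 cGy (0.27, limma adjusted p = 0.532), after 1.37 at 1 h. Its mean was 1.29 CPM in 100 cGy at 1 h and at most 0.51 CPM in any other group. It was thus tested only because of its level in that group. It counts among the 13 genes that rose at 1 h and the 11 with a lower effect at 24 h.

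BRCA1, a ubiquitin ligase of recombination repair, was at -0.10, the ribonucleotide reductase subunit TSO2 at -0.14, thymidine kinase TK1A at 0.02 and the clamp loader RAD17 at -0.09, all uncalled, with overlapping groups and adjusted p-values of at least 0.5. GMI1, a structural protein of recombination, was at 0.27 (limma adjusted p = 0.493), after 0.83 at 3 h. SOG1 was at -0.13 (limma adjusted p = 0.655). SMR5 and ERF1 stayed below the limit on low levels. Of 35 genes of repair and damage signalling none was called by limma, and the median was -0.05. In this list 1 gene lay above and 1 below all mock libraries, where 6.72% and 10.2% of all tested genes did.

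**Figure D3:**
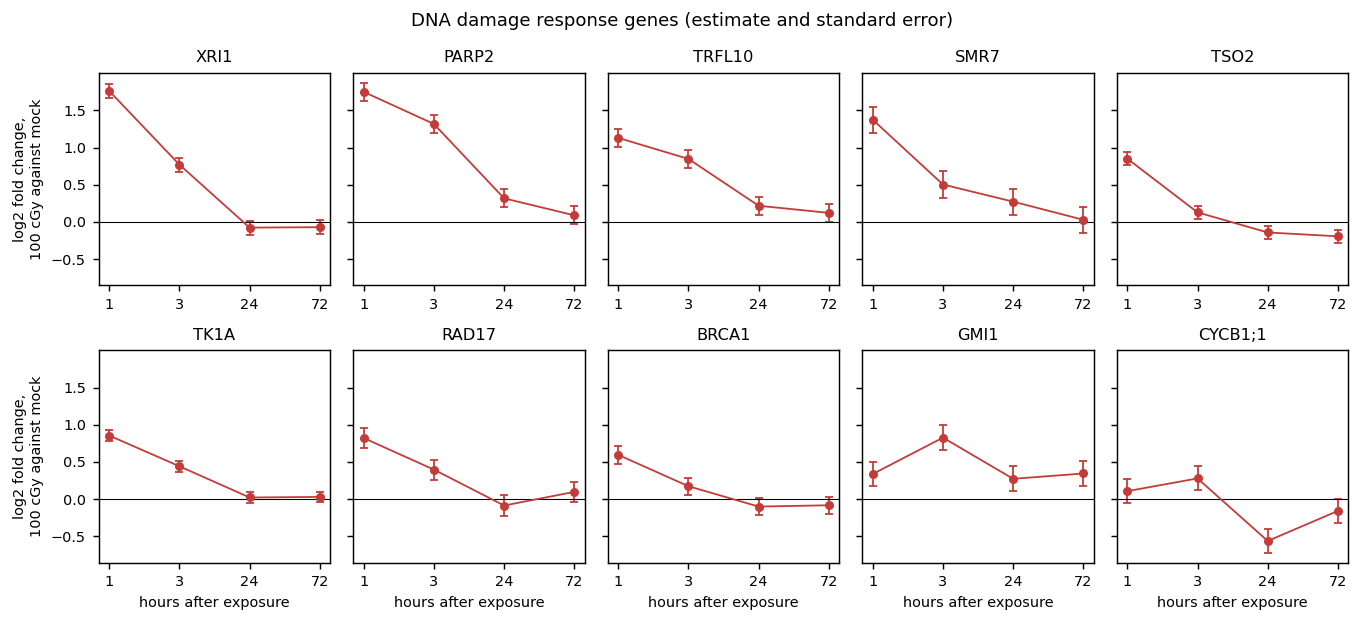
Log2 fold change of 100 cGy against mock (vertical axis, estimate with standard error) for 10 DNA damage response genes at 1, 3, 24 and 72 h (horizontal axis, evenly spaced). XRI1 and PARP2 go from 1.76 and 1.75 at 1 h to -0.08 and 0.32 at 24 h, and CYCB1;1 has its lowest value, -0.56, at 24 h.

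The genes moved at 1 h were mostly near mock at 24 h. Those that had risen at 1 h numbered 1937 (10.3%); their median log2 fold change went from 0.42 to 0.05, and 7 of them were called higher and 5 lower at 24 h. Those that had fallen numbered 1391 (7.37%); their median went from -0.37 to 0.01, with 9 called higher and 3 lower. The test of the difference between the times called 1662 genes (8.81%), 783 with a higher (4.15%) and 879 with a lower effect at 24 h (4.66%). It called 768 of the 1937 lower and 674 of the 1391 higher. These genes were chosen for their values at 1 h, which enter that difference.

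Among the largest rises at 1 h, AT1G72416 was at 0.28 at 24 h after 4.201, AT4G21870 at -0.06 after 4.00, the abscisate receptor PYL6 at 0.09 after 3.43, and the defence regulator WRKY18 at -0.40 after 2.92. AT5G61590, an ERF factor, was at 0.66 after 3.79, with 0.853, 1.02 and 0.675 CPM in mock and 1.38, 1.36 and 2.203 CPM after 100 cGy (limma adjusted p = 0.189). Among the largest falls, the expansin EXPA8 was at 0.81 at 24 h after -1.91, with 19.3, 10.9 and 16.5 CPM in mock and 25.6, 26.6 and 28.7 CPM after 100 cGy (limma adjusted p = 0.158). XTH31, which remodels xyloglucan, was at 0.50 after -1.75, and the expansin EXPB1 at 0.31 after -1.65. None of these was called at 24 h, and the effects at the 2 times differed for each of them by the interaction test.

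Of the 113 genes called at 24 h, 24 had been called at 1 h, 10 of them in the same direction. Of all tested genes 10.3% were called higher and 7.37% lower at 1 h. For 48 of the 113 the effect differed between 24 h and 1 h, where it did for 8.81% of all tested genes. The 113 were chosen for their values at 24 h, which enter that difference. SPCH was among the 48: it had risen by 0.59 at 1 h (limma adjusted p = 0.00577) and was lower at 24 h. Its 2 effects differed by 1.22 (limma adjusted p = 0.000284 for a lower effect at 24 h). CRF2, a cytokinin response factor, rose by 1.15 at 1 h and fell by 0.45 at 24 h (limma adjusted p = 0.0402, and 0.0774 with the replicate number). Between 24 h and 72 h the test of the difference called 1 gene (0.0053%), IMA2 (AT1G47395), an iron-deficiency peptide gene, with -0.05 at 24 h and -1.51 at 72 h (limma adjusted p = 0.0419). At an unadjusted p below 0.05 there were 1512 genes. Leaving out 1 of the 12 libraries of this test gave 0 to 2 calls, except 60 without 100 cGy replicate 3 of 72 h.

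Genes of the chloroplast machinery formed a large share of the fallen genes. Of the 18875 tested genes 2421 (12.8%) have a plastid location in the annotation, and of the 75 fallen genes 25 (33.3%) do, against 2 of the 38 risen ones (5.26%). The annotation is incomplete: for 9480 tested genes, among them the chloroplast proteins LHB1B1 and ELIP1 and 35 of the fallen genes, it names no location, and it places the kinesin HIK in the chloroplast. Of the 6974 genes with another location named, 15 fell (0.215%). Of the plastid genes 1.03% fell, against 0.304% of the others. Irradiated libraries lay below all mock libraries in 20.2% of plastid genes and 8.77% of the others, and above in 3.76% and 7.15%. The shift was small: the median log2 fold change was -0.05 for plastid genes and 0.00 for the others.

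NTT2, which imports ATP into plastids, fell from 274, 250 and 240 CPM to 213, 208 and 198 CPM (-0.30 ± 0.05, limma adjusted p = 0.00744). CPN20, a co-chaperonin, fell from 513, 489 and 499 CPM to 398, 415 and 397 CPM (-0.31, limma adjusted p = 0.032, 0.0571 with the replicate number and 0.0657 after rescaling). TOC33, a receptor of the protein import channel, fell from 89.2, 84.9 and 90.01 CPM to 73.0, 69.97 and 71.6 CPM (-0.30, limma adjusted p = 0.0482). In none of these 3 genes did the groups overlap, although for NTT2 the mock libraries spread more widely than the gap between the groups.

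Several of the fallen genes serve transcription and translation in the plastid. PTAC10 (PDE312), part of the plastid-encoded RNA polymerase complex, fell from 28.7, 30.7 and 31.2 CPM to 21.8, 22.8 and 22.5 CPM (-0.43 ± 0.09, limma adjusted p = 0.0262, and 0.0516 with the replicate number). FLN1 (-0.37), TRX z (-0.35) and PTAC18 (-0.47), further proteins of that complex, fell with adjusted p-values from 0.0472 to 0.0482, and from 0.0606 to 0.0671 with the replicate number. The list of 20 proteins and sigma factors of this polymerase, made after the calls were known, held these 4 as its called genes. Of all tested genes 0.397% were called lower, and of plastid genes 1.03%. The list was made with these 4 in view. The median of the list was -0.24, with 13 genes below and 1 above all mock libraries. Of all tested genes 10.2% lay below and 6.72% above, and of plastid genes 20.2% and 3.76%. The rescaling left 2 of the list called, and the replicate number left none. FSD2, a superoxide dismutase of the same complex, was at -0.47 (limma adjusted p = 0.0529).

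Plastid ribosomal protein S1, RPS1, fell from 514, 456 and 454 CPM to 411, 420 and 373 CPM (-0.24, limma adjusted p = 0.032, and 0.111 after rescaling). The protease FTSH12 of the inner envelope fell from 70.1, 67.1 and 65.98 CPM to 50.8, 56.5 and 50.6 CPM (-0.36, limma adjusted p = 0.0171). SPPA, a thylakoid protease, fell by 0.33 (limma adjusted p = 0.0118). DHDPS2, of lysine synthesis, fell by 0.35 (limma adjusted p = 0.0242), and LIN2, of haem and chlorophyll synthesis, fell by 0.23 (limma adjusted p = 0.0482, 0.0642 with the replicate number and 0.106 after rescaling). Transcripts of chloroplast-encoded genes took 0.198, 0.213 and 0.258% of CPM in mock and 0.268, 0.169 and 0.221% after 100 cGy, with groups that overlapped.

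**Figure D4:**
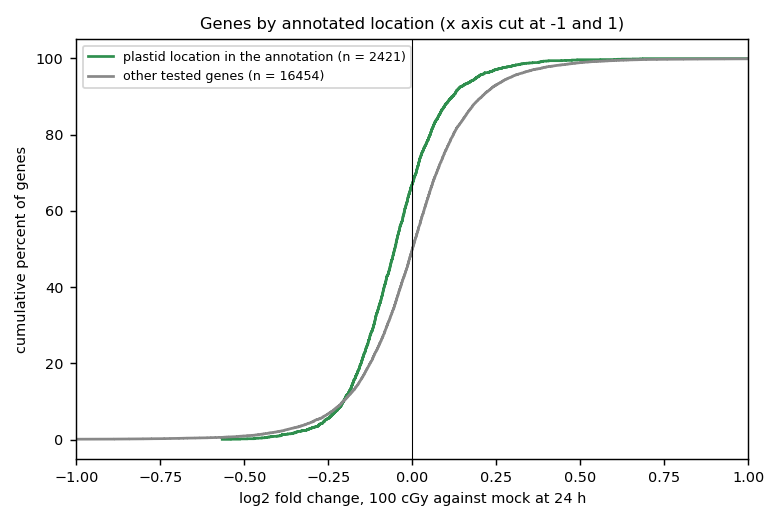
Cumulative percent of genes (vertical axis) by log2 fold change of 100 cGy against mock at 24 h (horizontal axis, limited to -1 to 1). The curve of the 2421 genes with an annotated plastid location lies to the left of that of the 16454 others around 0, with medians of -0.05 and 0.00.

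Other pathways gave few or no calls. Methylation and silencing genes had 25 of 26 values below 0 and a median of -0.11 (-0.06 without 100 cGy replicate 2), with 4 below all mock libraries, where 10.2% of all tested genes were. Antioxidant genes had a median of -0.08 (-0.04 without mock replicate 2) with 6 of 26 below. Heat genes had 13 of 16 values below 0 and a median of -0.14, which ranged from -0.22 without 100 cGy replicate 3 to -0.08 without mock replicate 2. Senescence and sugar starvation genes had a median of 0.21 with 3 of 19 above all mock libraries, where 6.72% of all tested genes were. That median was 0.01 and 0.40 without mock replicates 1 and 2 and 0.08 without 100 cGy replicate 2, and 1 of the 100 cGy libraries was at -0.03. Ethylene synthesis and signalling (0.04), ethylene response factors (0.06), abscisate (0.01), salicylate (0.10), touch (-0.02), cold (0.08), clock (-0.06), iron and zinc (0.01), glucosinolate (0.11), type-A response regulator (0.05) and low oxygen genes (0.02) had medians between -0.06 and 0.11. In none of these lists did limma call a gene, and at an unadjusted p below 0.05 each had at most 3 members higher and at most 6 lower. Of all tested genes 14.1% reached that level in either direction. Jasmonate genes varied between libraries more than between groups: the list medians of the 100 cGy libraries against the mock mean were -1.05, 0.60 and -0.18, and the list median of -0.17 ranged from -0.57 to 0.20 when 1 library was left out.

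**Figure D5:**
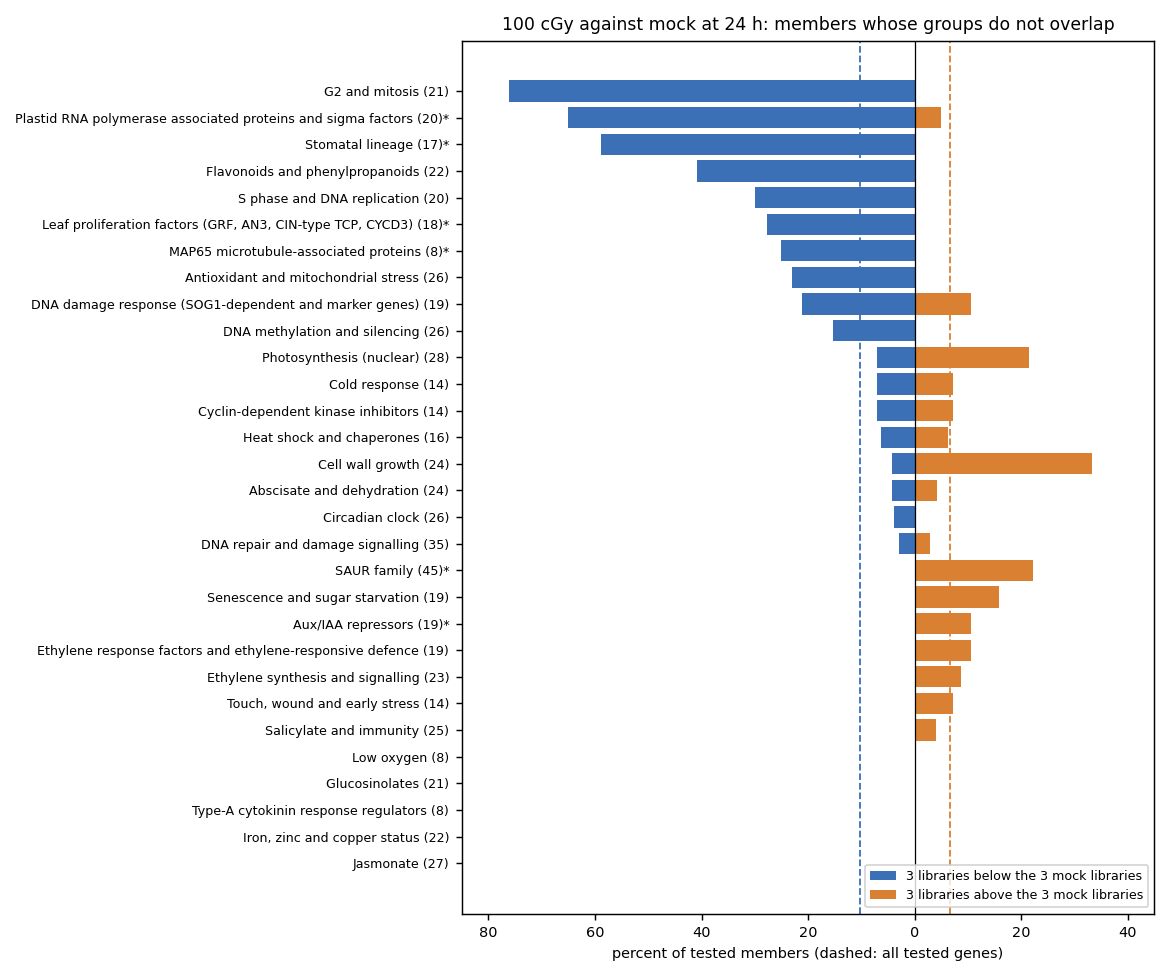
Percent of the tested members of each gene list whose 3 libraries of 100 cGy lay below (left of 0) or above (right of 0) the 3 mock libraries at 24 h; dashed lines are the 10.2% and 6.72% of all tested genes, the number tested is in brackets, and an asterisk marks lists made after the calls were known. G2 and mitosis reaches farthest to the left and cell wall growth farthest to the right.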

How the data were processed

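Expression was measured by RNA sequencing of whole rosettes, and the values used are the CPM deposited by the authors for 33977 genes in 36 libraries. The submitters' processing notes name Trimmomatic 0.32, STAR 2.5.2b, RSEM 1.2.28 and the TAIR10 build, without order. The authors' other table gives ln(CPM + 1), a natural log of the same values (largest difference 4.1e-09), and was not tested. Of the CPM values in the 6 libraries 87.5 to 89.6% were whole multiples of 1 count (tolerance 0.02), so no count test was run. Sums over the table make CPM relative: a change of a few abundant genes moves all others.

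Genes with 1 CPM in at least 3 libraries were fitted as log2(CPM + 0.5) with limma 3.58.1 (R 4.3.3), 12 group means, intensity trend and two-sided tests adjusted over all 18875 genes per contrast. The fit was tested on simulated data. Same-numbered libraries of mock and 100 cGy at 24 h deviated together (correlations 0.248, 0.341 and 0.31), so the fit with the replicate number is given beside calls it ends; the labels do not say what a number stands for. Alternatives were the pseudocount, the filter, rescaling, the libraries in the fit, a robust fit, the replicate term and leaving out each library. Genes named by rule were the 15 largest rises and 15 largest falls among called genes whose groups do not overlap, a set of damage and ethylene genes, the smallest p of each list in each direction, and the largest movers at 1 h; other called genes, chiefly of the cell wall, leaf growth and the plastid, were named after their values were seen. Not every gene that the rule takes is described. The members and lists were chosen with earlier results of these data known. Names, locations and promoters come from RefSeq on TAIR10.1, which matched 18802 tested genes and missed 73.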

Additional observations from a re-analysis of the deposited data

Results flagged for a closer look

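For the genes below the effect of 100 cGy differed between 24 h and 1 h by the interaction test (limma, adjusted p below 0.05); values are the log2 effect at 24 h minus that at 1 h. Among genes risen at 24 h the difference was 1.40 for AT5G11610, 0.91 for AT4G13577, 0.82 for SIB2, 0.78 for AT5G18030, 0.78 for AT1G56220, 0.74 for AT1G71970, 0.64 for AT1G01180, 0.44 for PLC1 and 0.42 for RTL1. Among genes fallen at 24 h it was -1.06 for ELIP1, -0.93 for AT5G13880, -1.22 for SPCH and -1.06 for AT1G71110. SPCH and AT1G71110 had been higher than mock at 1 h and were below it at 24 h. The risen and fallen genes were chosen for their values at 24 h, which enter the difference.

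In the DNA damage response the difference was -1.84 for XRI1, -1.43 for PARP2, -1.10 for SMR7 (AT3G27630), -0.99 for TSO2, -0.91 for RAD17, -0.83 for TK1A and -0.70 for BRCA1. SMR7 passed the filter only through 100 cGy at 1 h, which enters the difference. EBF2, an F-box protein that lowers ethylene signalling, was at -0.59.

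Among genes named for their place in a list and not called at 24 h, the difference was 1.26 for SIB1, 0.61 for PIF4, 0.51 for RD22 and 0.49 for SIM. It was -1.81 for RAV1, -0.71 for TPS10, -0.55 for FSD2, -0.55 for XTH16 and -0.43 for ARR4.

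For the genes that moved most at 1 h, which were chosen for their values at 1 h, the differences were -4.06 for AT4G21870, -3.92 for AT1G72416, -3.34 for PYL6, -3.31 for WRKY18, -3.29 for the lectin gene PP2-A5 and -3.14 for AT5G61590. Those that had fallen at 1 h differed by 2.72 for EXPA8, 2.25 for XTH31, 2.1204 for AT1G72910, 1.95 for EXPB1, 1.501 for AT1G48100 and 1.44 for AT1G60590.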

How the results depend on the processing

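For 100 cGy against mock at 24 h 113 genes were called. There were 54 without the filter on low values, 49 of them among the 113. With only the libraries of that time in the fit there was 1, which was not among the 113. With only the groups compared there were 2, 1 of them among the 113. The replicate block within time gave 51. The block in a fit of only mock and 100 cGy at 24 h gave 8, 3 of them among the 113. That last alternative was chosen after seeing the data. Pseudocounts of 0.1 and 1, a minimum of 5 CPM, rescaling and a robust fit gave 112, 113, 132, 95 and 109. Leaving out 1 library gave 1 to 80. For 100 cGy against 10 cGy 213 genes were called. With only the time there was 1, which was not among the 213, and with only the groups 0. The block gave 128, 112 of them among the 213. Rescaling gave 153, 57 of them among the 213, and leaving out 1 library gave 6 to 256. The 1662 genes whose effect differed between 24 h and 1 h stayed between 1476 and 1707, and between 1256 and 1570 without 1 library. The 1 gene that differed between 72 h and 24 h was lost (0) with only the times and with only the groups. Without the filter 1 gene was called, but it was a different gene. Leaving out 1 library gave 0 to 60. The cause of these shifts was not tested, apart from the fewer libraries and residual degrees of freedom that some of these fits have by construction.

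Of 44 named genes, 14 lost a call with the block, 15 without the filter, 2 after rescaling and 12 to 29 without 1 library. With only the groups 29 lost a call, and with only the time 30. None reversed while called. These 44 are not confined to calls of 100 cGy against mock at 24 h. Of those 113 calls, 0 were kept with only the time and 1 with only the groups. Of 697 values compared, 6 changed sign while uncalled in both fits. Depth limits genes near 0.1 CPM, such as RALFL32.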
